A study of Mus musculus with 32 samples.

Results

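The 10 hypoxia response genes described here are Vegfa, Hif1a, Adm, Slc2a1, Pdk1, Bnip3, Egln3, Ankrd37, Ndrg1 and Ldha, taken by their gene symbols from the 26629 named entries of the expression table. Their transcripts were read in 9 spaceflight and 7 ground control retinas by RNA-seq, and the DNA methylation around their starts in 8 spaceflight and 8 ground control retinas by reduced representation bisulfite sequencing (RRBS), which converts unmethylated cytosines and sequences CpG-rich fragments. All mice were female C57 BL/6J, aged 21 weeks by their labels, which name no allele or drug in either group. Spaceflight mice lived for 37 days on the International Space Station and ground controls in the same kind of habitat on Earth. Each library came from 1 retina of 1 mouse. By the labels, left retinas gave 4 spaceflight and 2 ground control RNA libraries, and right retinas 5 of each. Flight mice were killed and frozen on orbit, and, by the study's account, ground controls at the same time and in the same way. Retinas were freed by hand from thawed carcasses, so that RNA from neighbouring tissue of the eye can be in a library. The RNA library of mouse M21 has a flight source name and a ground control condition label, and was counted as spaceflight. For 6 ground control RNA libraries the mouse number in the label differs from that in the study's table of reads, which was followed here. By the labels, the column of M37 would replace that of M40.

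Cells sense oxygen through the prolyl hydroxylases, which mark the alpha subunits of the hypoxia-inducible factor (HIF) for destruction while oxygen is present. When oxygen falls, HIF-1α is no longer degraded, pairs with ARNT and binds short DNA elements with the core ACGTG or GCGTG, from which genes for glucose uptake, glycolysis, vessel growth and mitophagy are induced. The control acts mainly on the HIF-1α protein, so that the level of Hif1a RNA alone does not measure HIF activity. The retina is known for a high use of oxygen by its photoreceptors, and for making lactate from glucose even where oxygen is present.

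As scaled in the deposited table, none of the 10 genes differed between spaceflight and ground control retinas beyond the spread between mice. Of the 9 members with a mean of at least 1 FPKM (fragments scaled by transcript length and library size), 0 were called by limma, whose calls needed a fold change of 1.2, an unadjusted p of at most 0.05 and, once adjusted over all genes, of at most 0.3. Over all 14322 genes at that level, 21 were called, which is 0.147%. At an unadjusted p of at most 0.05 stood 0 of the 9 members, against 1553 of 14322 genes, or 10.8%. Hif1a had the lowest p of the members. Fitted log2 changes were above 0 for 5 members and below 0 for 4, with a median of 0.02 for the members and -0.00051 for all genes tested. The median size of the change, whatever its sign, was 0.07 for the members and 0.13 for all genes, on the log2 scale.

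**Figure D1:**
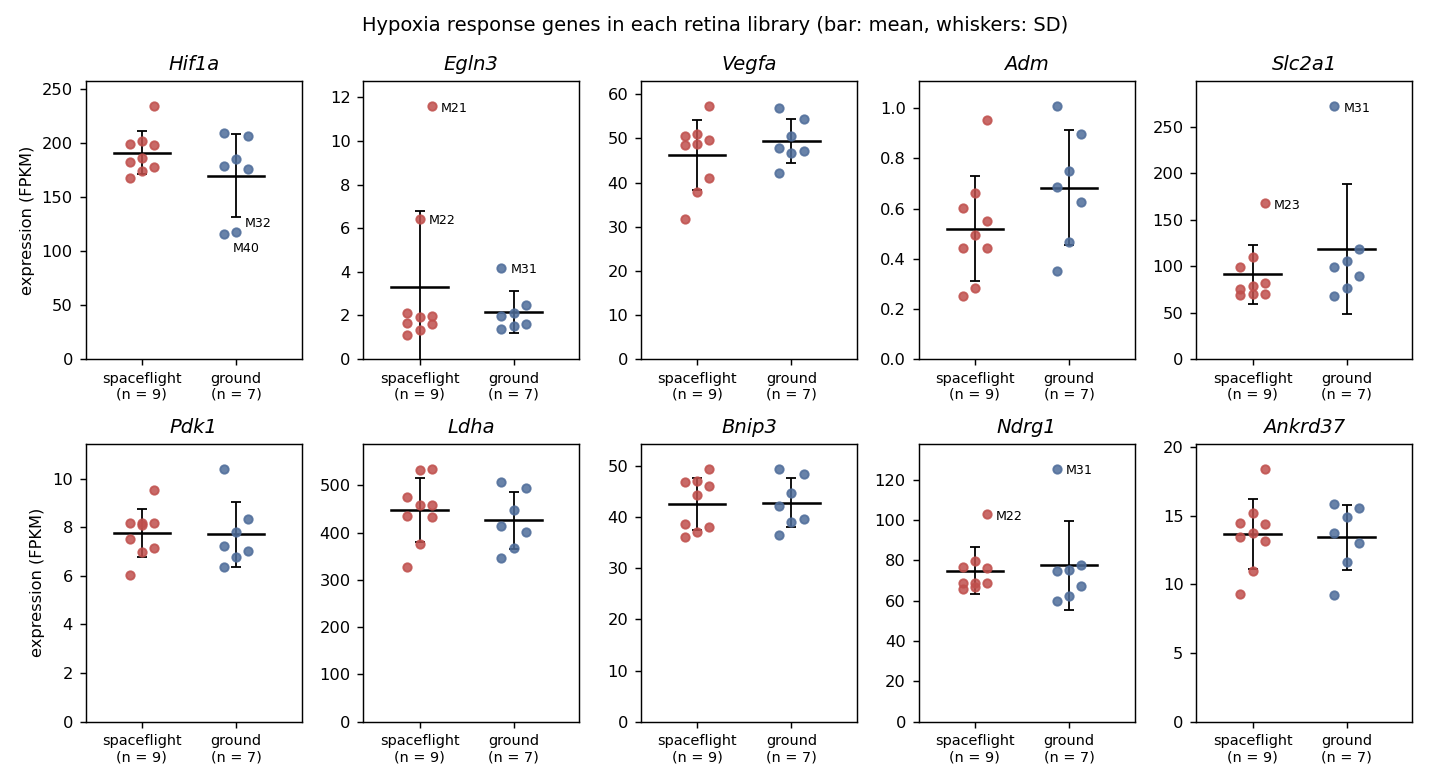
Expression of the 10 hypoxia response genes in FPKM in each retina library, 9 spaceflight on the left of each panel and 7 ground control on the right. Bars are means and whiskers SD (cut at 0 for Egln3), and the groups overlap in every panel, with M31 far above the other ground controls for Slc2a1 and Ndrg1.

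Levels differed between the genes far more than between the groups. The mean over the 16 libraries was 438 FPKM for Ldha, 182 FPKM for Hif1a, 103 FPKM for Slc2a1, 76.1 FPKM for Ndrg1, 47.6 FPKM for Vegfa, 42.6 FPKM for Bnip3, 13.6 FPKM for Ankrd37, 7.73 FPKM for Pdk1, 2.81 FPKM for Egln3 and 0.591 FPKM for Adm. FPKM is scaled by transcript length, so that these levels can be set side by side. Neighbours in this order overlapped across libraries for Hif1a and Slc2a1, Slc2a1 and Ndrg1, Vegfa and Bnip3, Ankrd37 and Pdk1, and Pdk1 and Egln3. Ldha stood above every value of the other members, and Adm below every value of Egln3.

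The promoters of Ldha, Bnip3 and Ankrd37 are shown because they hold the most HIF core motifs near a start, and that of Slc2a1 because its transcript varied most among the strongly expressed members. Each is the RefSeq sequence of GRCm38.p6 from 250 bases before to 50 bases after an annotated start, 5′ to 3′ on the strand of the gene, with ACGTG and GCGTG in capitals on either strand (CACGT and CACGC where the core lies on the opposite strand). They are chr7:46845554-46845853 on the plus strand for Ldha, chr7:138909457-138909756 on the minus strand for Bnip3, chr8:45999801-46000100 on the minus strand for Ankrd37 and chr4:119108495-119108794 on the plus strand for Slc2a1.
Ldha: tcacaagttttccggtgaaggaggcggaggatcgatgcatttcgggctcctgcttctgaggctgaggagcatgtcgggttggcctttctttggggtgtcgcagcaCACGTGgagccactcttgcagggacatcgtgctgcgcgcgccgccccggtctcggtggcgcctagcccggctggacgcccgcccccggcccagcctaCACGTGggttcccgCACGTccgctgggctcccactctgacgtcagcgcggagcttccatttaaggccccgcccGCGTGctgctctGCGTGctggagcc
Bnip3: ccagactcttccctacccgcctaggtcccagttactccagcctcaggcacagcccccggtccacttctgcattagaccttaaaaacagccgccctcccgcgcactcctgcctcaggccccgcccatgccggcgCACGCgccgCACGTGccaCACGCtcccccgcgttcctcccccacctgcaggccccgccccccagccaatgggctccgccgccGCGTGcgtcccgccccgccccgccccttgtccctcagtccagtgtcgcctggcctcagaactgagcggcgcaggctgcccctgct
Ankrd37: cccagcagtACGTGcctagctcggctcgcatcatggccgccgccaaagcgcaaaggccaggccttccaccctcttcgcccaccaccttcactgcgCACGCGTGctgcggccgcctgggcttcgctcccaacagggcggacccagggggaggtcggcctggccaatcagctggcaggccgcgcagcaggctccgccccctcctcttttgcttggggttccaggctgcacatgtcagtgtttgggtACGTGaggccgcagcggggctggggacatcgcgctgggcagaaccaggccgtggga
Slc2a1: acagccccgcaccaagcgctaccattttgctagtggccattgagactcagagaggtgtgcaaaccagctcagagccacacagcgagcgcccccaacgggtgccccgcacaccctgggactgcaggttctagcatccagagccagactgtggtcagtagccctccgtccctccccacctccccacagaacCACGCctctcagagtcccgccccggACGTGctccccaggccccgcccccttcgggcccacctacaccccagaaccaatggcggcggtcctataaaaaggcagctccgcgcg
Counting each CpG inside a core once, the Ldha promoter held 5, those of Bnip3 and Ankrd37 4 each and that of Slc2a1 2. Windows of this length were found for 9 of the 10 members, all but Ndrg1, with 12 starts between them, and 10 of the 12 held a core. Of 32851 mouse promoters of the same length, 43.8% held ACGTG or GCGTG on either strand (19.6% ACGTG, 32.4% GCGTG), and 2.64% held 4 or more. Member promoters were rich in CG, with a median of 17 CG against 7 for all promoters, and 72.4% of the promoters with at least 17 CG held a core. A match of 5 letters is a description of the sequence and not a bound site.

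Hif1a, the oxygen-regulated subunit itself, had 191 ± 20.02 FPKM in spaceflight retinas (SD, n = 9) and 170 ± 38.4 FPKM in ground control retinas (SD, n = 7). Spaceflight libraries ran between 167 and 234 FPKM with a median of 186, and ground control libraries between 116 and 209 FPKM with a median of 178. Ground control mice M40 with 116 FPKM and M32 with 117 FPKM lay below every spaceflight library, while the other 5 ground controls fell inside the spaceflight range. The log2 change was 0.20 (95% interval -0.07 to 0.47, adjusted p = 0.560 by limma), and the exact two-sided permutation test over the libraries gave p = 0.168. Without M40 it was 0.11, without M32 0.12 and with library quality weights 0.06. M40 is also the library that the other reading of the labels would leave out.

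Hif1a was the member whose call depended on the scaling. The library totals in FPKM held 41.9 to 76.8% of short structured RNAs in spaceflight and 59.5 to 75.8% in ground control libraries. With every library scaled to the total of all other genes, Hif1a stood at 0.33 with an adjusted p of 0.252 by limma and passed the call, the 1 member of 9 to do so. This scaling moved the median of all genes by 0.13, and 2104 of 14353 genes were called, or 14.7%, of which 2012 were higher in spaceflight. Relative to that shift the change of Hif1a was 0.20 again. With quantile normalization it was 0.32 with an adjusted p of 0.505 by limma. Over the 29 alternatives the adjusted p of Hif1a ranged from 0.252 to 0.848, and the change kept its sign.

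Egln3 encodes the oxygen-sensing prolyl hydroxylase PHD3, itself a HIF target that is strongly induced by hypoxia in many cells. It had 11.6 FPKM in spaceflight mouse M21 and 6.43 in M22, and 1.12 to 2.13 FPKM in the other 7 spaceflight libraries, against 4.19 FPKM in ground control mouse M31 and 1.38 to 2.47 in the other 6 ground controls. The group means were 3.30 ± 3.50 FPKM in spaceflight (SD, n = 9) and 2.17 ± 0.969 FPKM in ground control retinas (SD, n = 7). Apart from M21, M22 and M31, the groups covered nearly the same range. The log2 change was 0.22 with a wide 95% interval of -0.65 to 1.095 (adjusted p = 0.850 by limma; exact permutation p = 0.639). It turned to -0.06 without M21, to -0.13 without M21, M22 and M31, and to -0.36 with M21 counted as ground control.

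Vegfa, the growth factor that drives vessel growth and leakage in the hypoxic retina, had 46.2 ± 7.84 FPKM in spaceflight (SD, n = 9) and 49.4 ± 5.003 FPKM in ground control retinas (SD, n = 7). Spaceflight libraries spanned 31.7 FPKM in M22 to 57.3 FPKM in M23 with a median of 48.8, and ground control libraries 42.2 FPKM in M32 to 56.9 FPKM in M40 with a median of 47.8. The low spaceflight values came from M22, M21 and M24, and the other 6 lay between 48.4 and 57.3 FPKM, much as the ground controls did. The log2 change of Vegfa was -0.11 (95% interval -0.34 to 0.12, adjusted p = 0.713 by limma), and -0.042 without M22.

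Adm, which encodes the vasodilator peptide adrenomedullin, was the weakest member and the 1 below the limit of 1 FPKM, so that it had no part in the fit. It measured 0.520 ± 0.211 FPKM in spaceflight (SD, n = 9; lowest 0.250, median 0.496, highest 0.952) and 0.683 ± 0.230 FPKM in ground control retinas (SD, n = 7; lowest 0.351, median 0.684, highest 1.01). Only M22, 1 of 9 spaceflight libraries, lay above the ground control median. The log2 difference of -0.35 for Adm gave p = 0.162 in the exact two-sided permutation test.

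Slc2a1, the glucose transporter GLUT1 that carries glucose across the blood-retina barrier and into photoreceptors, averaged 91.4 ± 31.7 FPKM in spaceflight (SD, n = 9) and 118 ± 69.8 FPKM in ground control retinas (SD, n = 7). It reached 167 FPKM in spaceflight mouse M23, with 69.1 to 110 FPKM in the other 8 spaceflight libraries, and 272 FPKM in ground control mouse M31, with 68.0 to 118 FPKM in the other 6. With those 2 libraries set aside the groups shared nearly the same range. The log2 change of Slc2a1 was -0.28 (95% interval -0.80 to 0.24, adjusted p = 0.671 by limma), and it was -0.05 without M31, -0.40 without M23 and -0.17 without both. The interval for all libraries includes changes larger than the 1.2-fold that a call needed.

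Pdk1, the kinase that keeps pyruvate out of the mitochondria, was nearly level between the groups. It had 7.76 ± 0.984 FPKM in spaceflight (SD, n = 9; lowest 6.03, median 8.11, highest 9.51) and 7.70 ± 1.35 FPKM in ground control retinas (SD, n = 7; lowest 6.38, median 7.23, highest 10.4). Its highest libraries were M22 in spaceflight and M31 among the ground controls, and its log2 change was 0.02 (95% interval -0.20 to 0.24).

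Ldha, the lactate dehydrogenase subunit that turns pyruvate into lactate, had 448 ± 66.8 FPKM in spaceflight (SD, n = 9; lowest 328, median 458, highest 535) and 426 ± 61.0 FPKM in ground control retinas (SD, n = 7; lowest 346, median 415, highest 508). M22 and M21 were the lowest spaceflight libraries, and M32 and M31 the lowest ground controls. The log2 change of Ldha was 0.07 (95% interval -0.17 to 0.31, adjusted p = 0.826 by limma) and remained above 0 under all 29 alternatives, between 0.02 and 0.24.

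Bnip3, a mitochondrial receptor for mitophagy, had the narrowest interval of the 9. It measured 42.5 ± 5.09 FPKM in spaceflight (SD, n = 9; lowest 35.997, median 44.2, highest 49.3) and 42.8 ± 4.85 FPKM in ground control retinas (SD, n = 7; lowest 36.5, median 42.1, highest 49.3). The ranges covered each other, and the log2 change was -0.01 (95% interval -0.19 to 0.17, adjusted p = 0.974 by limma). The intervals of Bnip3 and Pdk1 lay inside a 1.2-fold change in either direction under the deposited scaling, and those of the other 7 members did not.

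Ndrg1, a stress-response gene that is induced by hypoxia in many cell types, had 74.9 ± 11.6 FPKM in spaceflight (SD, n = 9; lowest 65.6, median 68.9, highest 103) and 77.5 ± 22.1 FPKM in ground control retinas (SD, n = 7; lowest 59.7, median 74.7, highest 125). M22 and M31 each stood alone at the top of their group, and the log2 change was -0.02 with all libraries and 0.10 without M31. Ankrd37, a small ankyrin repeat gene known as a direct HIF-1 target, had 13.7 ± 2.56 FPKM in spaceflight (SD, n = 9; lowest 9.34, median 13.7, highest 18.4) and 13.4 ± 2.39 FPKM in ground control retinas (SD, n = 7; lowest 9.21, median 13.7, highest 15.9). Its lowest libraries were M21 in spaceflight and M31 among the ground controls, and its log2 change was 0.03 (95% interval -0.26 to 0.31).

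**Figure D2:**
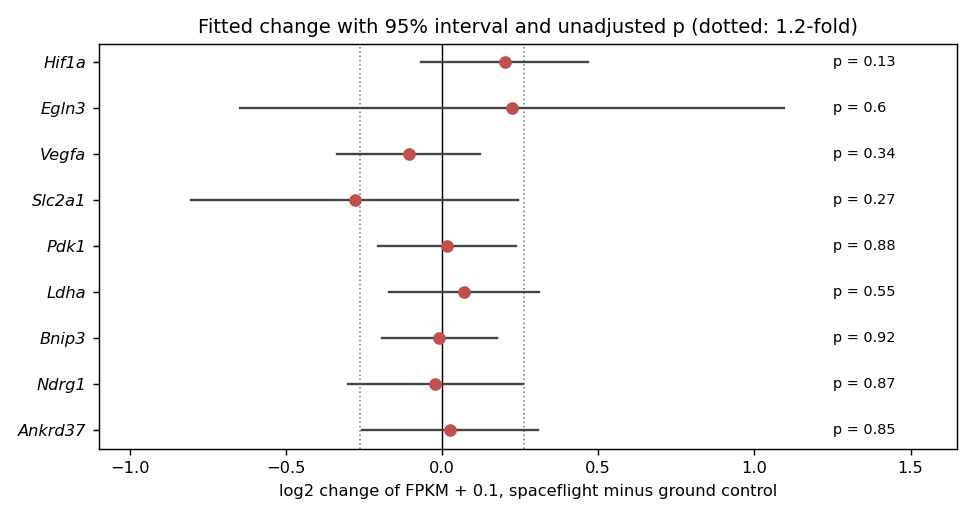
Fitted log2 change of FPKM + 0.1, spaceflight minus ground control, for the 9 members with a mean of at least 1 FPKM, with the 95% interval of limma and the unadjusted p. Dotted lines mark a 1.2-fold change, and every interval includes 0, that of Egln3 being the widest.

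The members did not vary between mice as 1 group. With the group means taken out, 36 pairs of the 9 tested members were correlated over the 16 libraries, and 18 pairs had a Pearson's r above 0. At an adjusted permutation p of 0.05 or under stood 6 pairs, 2 positive and 4 negative. The share of such pairs among other genes was not computed. Egln3 and Ankrd37 gave r = -0.86 (p = 4e-05, adjusted 0.00144) and Spearman's rho = -0.67 (p = 0.00534, adjusted 0.0320), with r = -0.80 without M21 and M22. Both genes are HIF targets, but in these libraries one was low where the other was high.

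As deposited and with 0.1 FPKM added, Egln3 and Pdk1 went together between mice, a call that was lost with a pseudocount of 1. They gave r = 0.63 (p = 0.00541, adjusted 0.0390) and rho = 0.68 (p = 0.00407, adjusted 0.0320), with r = 0.72 without M21 and M22. Ldha gave r = -0.77 with Egln3 (p = 0.00119, adjusted 0.0148; rho = -0.86, p = 4e-05, adjusted 0.00144; r = -0.70 without M21 and M22). Ldha gave r = -0.70 with Pdk1 (p = 0.0033, adjusted 0.0297; rho = -0.80, p = 0.00042, adjusted 0.00756; r = -0.77 without M31 and M26). These signs held within each group, as r between Ldha and Egln3 was -0.82 over the spaceflight and -0.72 over the ground control libraries.

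Of the other called pairs, Pdk1 and Ankrd37 gave r = -0.77 (p = 0.00123, adjusted 0.0148; rho = -0.69, p = 0.00532, adjusted 0.0320), which weakened to r = -0.56 without M31 and M26. Ldha and Ankrd37 gave r = 0.67 (p = 0.00699, adjusted 0.0419; rho = 0.64, p = 0.0116, adjusted 0.0520; r = 0.63 without M22 and M32). Slc2a1 and Ndrg1 had r = 0.67 as well, but an adjusted p of 0.0949 and rho = 0.27, and r = 0.26 without M31 and M23, so that their relation rested on those libraries. Hif1a was in none of the called pairs. With a pseudocount of 1, 4 of the 36 pairs were called, all of them negative, so that neither positive pair, Egln3 with Pdk1 or Ldha with Ankrd37, kept its call. With libraries scaled to the total of the other genes, 2 pairs were called, 1 positive and 1 negative.

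**Figure D3:**
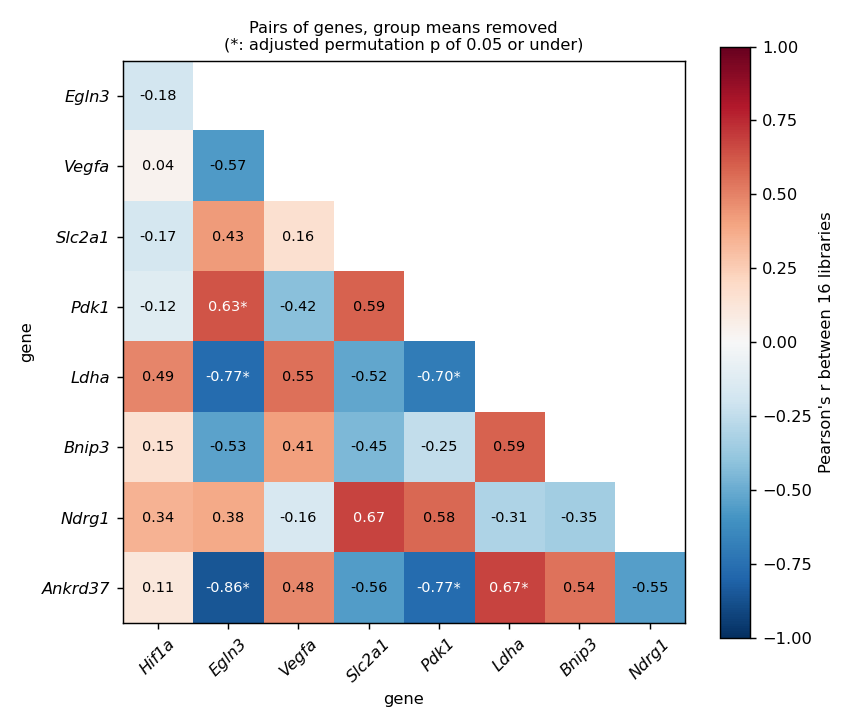
Pearson's r between the 9 members with a mean of at least 1 FPKM over 16 libraries, on log2(FPKM + 0.1) with group means removed. Red is positive and blue negative, an asterisk marks an adjusted permutation p of 0.05 or under, and the strongest values are the negative ones of Egln3 with Ankrd37 and Ldha.

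Retinal and other tissue markers moved with several members between mice. Rod markers (5 of 5 at 1 FPKM or more in every library) summed to 12078 to 26648 FPKM in spaceflight and 16410 to 25758 FPKM in ground control libraries, so that the labelled tissue was present throughout. Markers of surface epithelium (Krt12, Krt5, Krt14, Krt1 and Krt10; 2 of 5 at 1 FPKM or more in every library) summed to 9.54 to 841 FPKM in spaceflight and 10.7 to 69.5 FPKM in ground control libraries, with Krt5 listed at 0 in M24 and Krt14 in M24 and M26. M21 and M22, highest for Egln3, were the highest here too, at 722 and 841 FPKM, but through different keratins. M21 had mostly Krt5 at 580 and Krt14 at 127 FPKM, with Krt10 at 11.1 and Krt1 at 1.27 FPKM. M22 had Krt10 at 356, Krt1 at 274, Krt5 at 121 and Krt14 at 88.7 FPKM. Krt12 was low in both, at 2.10 and 1.75 FPKM, against 39.5 FPKM in M34. The sum thus does not stand for 1 cell type. Egln3 and the surface epithelium sum gave r = 0.92 (p = 0.00018, adjusted 0.00236) and rho = 0.88 (p = 0.0001, adjusted 0.00288), with r = 0.79 without M21 and M22. Whether cells with these keratins contributed Egln3 RNA was not tested. In such bulk samples, fewer cells of a type and less RNA per cell cannot be told apart.

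Slc2a1 followed markers of microglia and macrophages (Ptprc, Aif1, Csf1r, C1qa and Cd68; 2 of 5 at 1 FPKM or more in every library, none at 0), which summed to 13.8 to 27.4 FPKM in spaceflight and 14.2 to 65.7 FPKM in ground control libraries. The correlation was r = 0.92 (p = 3e-05, adjusted 0.00185) and rho = 0.93 (p = 2e-05, adjusted 0.00192), with r = 0.82 without M31 and M22. M31 was highest for both, and had the highest ground control value of each of the 5 markers. In M23, highest of the spaceflight libraries for Slc2a1, the sum came mostly from Csf1r, at 18.5 FPKM against 8.37 FPKM in M21. Its C1qa at 5.49 and Cd68 at 2.18 FPKM were below the 5.87 and 8.56 FPKM of M21. Slc2a1 and the Müller glia sum gave r = 0.83 (p = 0.00041, adjusted 0.00422; rho = 0.69, p = 0.00575, adjusted 0.0286), but r = 0.56 without M31 and M23. Slc2a1 also followed the summed markers of pericytes and smooth muscle, with r = 0.85 (p = 0.00013, adjusted 0.00208, rho = 0.77, p = 0.00134, adjusted 0.0138, and r = 0.76 without M31 and M22), and those of melanocytes, with r = 0.79 (p = 0.00015, adjusted 0.00216, rho = 0.79, p = 0.00123, adjusted 0.0138, and r = 0.79 without M31 and M40). The pericyte and smooth muscle sum (Acta2, Myh11, Rgs5, Pdgfrb and Cspg4) came mostly from Acta2 in M31 and M23, at 184 and 80.6 FPKM. M31 had the highest ground control value of each of these 5 markers. In M23, Cspg4 at 2.45 FPKM was the highest of the spaceflight libraries. Its Rgs5 at 5.89 and Pdgfrb at 4.53 FPKM were below the 10.3 and 5.25 FPKM of M21. Müller glia markers (Glul, Rlbp1, Slc1a3, Aqp4 and Vim), 5 of 5 at 1 FPKM or more in every library, summed to 611 to 1090 FPKM in spaceflight and 870 to 1510 FPKM in ground control libraries. These markers did not rise together. In M31, Vim at 489 and Rlbp1 at 416 FPKM stood far above the other ground controls, and Aqp4 at 48.1 FPKM was the highest of them. Glul at 505 FPKM lay inside their range, and Slc1a3 at 51.8 FPKM was the lowest. M23 was high for Rlbp1, at 363 FPKM.

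The pigment epithelium, whose cells hold much GLUT1, did not order the Slc2a1 values apart from 2 libraries. Its sum was 853 to 5391 FPKM in spaceflight and 1521 to 8019 FPKM in ground control libraries (4 of 5 markers at 1 FPKM or more in every library, none at 0), with M23 and M31 the highest of their groups, as they were for Slc2a1. Over all libraries r was 0.52 (p = 0.0553, adjusted 0.0984) and rho -0.05 (p = 0.871, adjusted 0.883), and without M31 and M23 r was -0.67. The share of these cells in the Slc2a1 values of M23 and M31 was not tested.

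Ldha followed the rod markers, with r = 0.85 (p = 5e-05, adjusted 0.00185), rho = 0.86 (p = 3e-05, adjusted 0.00192) and r = 0.74 without M22 and M21. Egln3 ran against them, with r = -0.83 (p = 0.00115, adjusted 0.00789; rho = -0.75, p = 0.00184, adjusted 0.0144; r = -0.63 without M22 and M21). The low Ldha of M21 and M22 thus stood beside the 2 lowest rod sums. Against tissue other than the neural retina, Ldha ran the opposite way about as strongly, with r = -0.84 for the fibroblast sum (p = 8e-05, adjusted 0.00185, rho = -0.86, p = 0.0001, adjusted 0.00288, and r = -0.81 without M31 and M22). It gave r = -0.84 with surface epithelium (p = 8e-05, adjusted 0.00185, rho = -0.79, p = 0.00049, adjusted 0.00882, and r = -0.75 without M22 and M21) and r = -0.81 with melanocytes (p = 0.00012, adjusted 0.00208, rho = -0.82, p = 0.00023, adjusted 0.00552, and r = -0.85 without M31 and M40). Ankrd37 ran against the fibroblast sum with r = -0.84 (p = 7e-05, adjusted 0.00185; rho = -0.78, p = 0.00114, adjusted 0.0138; r = -0.74 without M31 and M22), which ranged over 14.03 to 147 FPKM in spaceflight and 11.2 to 234 FPKM in ground control libraries (1 of 5 markers at 1 FPKM or more in every library).

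Hif1a moved with 1 of the 16 sums and shares examined, the immediate early genes Fos, Egr1, Junb, Ier2 and Nr4a1, which respond within minutes to stimulation or handling. They summed to 44.99 to 134 FPKM in spaceflight and 66.0 to 205 FPKM in ground control libraries, and gave r = -0.69 with Hif1a (p = 0.00743, adjusted 0.0261; rho = -0.67, p = 0.00867, adjusted 0.0378; r = -0.70 without M22 and M40). Within groups, r was -0.28 over spaceflight and -0.90 over ground control libraries, where M40 had the highest sum and the lowest Hif1a. In all, 144 relations between members and such measures were computed, an analysis chosen after seeing the data, and 57 had an adjusted p of r of 0.05 or under, 37 of them also by rho. The same share was not computed for other genes, so that these counts do not set the members apart from them. Vegfa and Ndrg1 had no relation that passed by both.

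**Figure D4:**
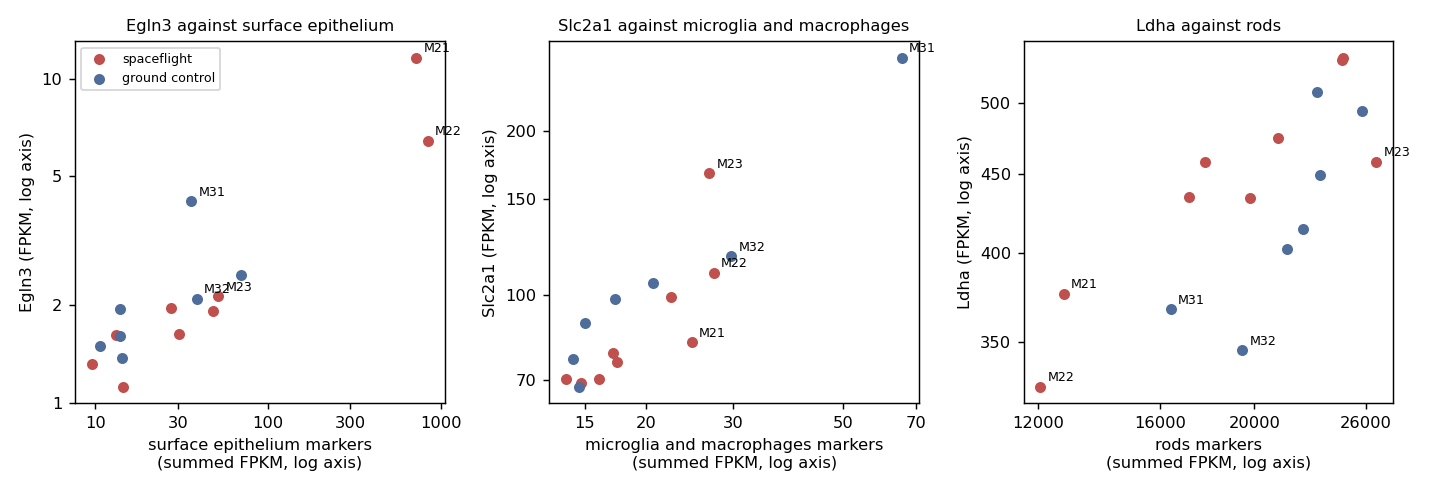
Egln3 against the summed FPKM of surface epithelium markers, Slc2a1 against microglia and macrophage markers and Ldha against rod markers, each point 1 library on log axes. M21 and M22 lie at the top right for Egln3, M31 at the top right for Slc2a1, and M22 and M21 at the lower left for Ldha.

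The wider pathway was read from 84 further genes in 8 lists, of which 78 had a mean of at least 1 FPKM. Of these, 0 were called in either direction, and 9, or 11.5%, had an unadjusted p of at most 0.05 by limma, close to the 10.8% of all genes. Among the 9 were Ero1l and Cul2, with log2 changes above 0, and Angptl4, Ldhb, Egln2, Pkm2, Gpi1 and Pfkm, with log2 changes below 0. Gpi1 and Pfkm were named after their values were seen. Below 1 FPKM were Pdk4, Pgf, Epo, Car9, Lox and Stc2, with Epo, the classic hypoxia gene of the kidney, at a mean of 0.105 FPKM and Car9, the pH-regulating carbonic anhydrase, at 0.339 FPKM.

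Of the 4 other HIF subunits 0 were called, with a median log2 change of -0.02. Epas1, which encodes HIF-2α, had 89.1 ± 20.5 FPKM in spaceflight (SD, n = 9) and 92.4 ± 20.05 FPKM in ground control retinas (SD, n = 7), and Arnt, the shared partner subunit, 12.1 ± 0.716 FPKM in spaceflight and 11.9 ± 0.581 FPKM in ground control retinas. The largest changes of the list were those of Hif3a, a further alpha subunit, at 0.19 (adjusted p = 0.673 by limma, with 1.502 ± 0.330 FPKM in spaceflight and 1.303 ± 0.289 FPKM in ground control retinas), and of Arnt2, a relative of Arnt, at -0.13 (adjusted p = 0.728 by limma, with 2.31 ± 0.472 FPKM in spaceflight and 2.51 ± 0.353 FPKM in ground control retinas). Of the genes of oxygen sensing and HIF turnover, 0 of 9 were called. Egln2, a further prolyl hydroxylase, had 13.6 ± 1.41 FPKM in spaceflight and 16.3 ± 3.12 FPKM in ground control retinas (log2 change -0.25, adjusted p = 0.423 by limma). Cul2, the scaffold of the VHL ubiquitin ligase, had 8.87 ± 0.909 FPKM in spaceflight and 7.59 ± 1.35 FPKM in ground control retinas (log2 change 0.24, adjusted p = 0.446 by limma). The genes with the highest level in that list were 2 other parts of the ligase, Tceb2 with 230 ± 23.7 FPKM in spaceflight and 237 ± 51.8 FPKM in ground control retinas, and Rbx1 with 48.7 ± 4.78 FPKM in spaceflight and 47.99 ± 6.26 FPKM in ground control retinas.

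Of the 18 genes of glucose uptake and glycolysis, 0 were called, and 3 had a log2 change above 0, with a median of -0.14. With quantile normalization 8 of 18 were above 0, with a median of -0.02. Scaling to the total of the other genes moved all genes by 0.13 and left the median of the list below that shift, at -0.0068. Pkm2, the pyruvate kinase of the last step, had 923 ± 122 FPKM in spaceflight (SD, n = 9) and 1092 ± 103 FPKM in ground control retinas (SD, n = 7), a log2 change of -0.25 (adjusted p = 0.418 by limma). Aldoa, which splits fructose bisphosphate, had 1263 ± 154 FPKM in spaceflight and 1473 ± 210 FPKM in ground control retinas, and Gapdh 2373 ± 321 FPKM in spaceflight and 2642 ± 218 FPKM in ground control retinas. Among 10 genes of pyruvate and lactate, Ldhb, the subunit that pairs with Ldha, had 125 ± 22.7 FPKM in spaceflight and 160 ± 39.9 FPKM in ground control retinas (log2 change -0.33, adjusted p = 0.421 by limma). Slc16a8, a lactate transporter of the pigment epithelium, had 19.3 ± 9.01 FPKM in spaceflight and 28.2 ± 11.8 FPKM in ground control retinas (log2 change -0.60, adjusted p = 0.469 by limma). Bsg, the partner protein of such transporters, had 734 ± 133 FPKM in spaceflight and 861 ± 183 FPKM in ground control retinas (log2 change -0.22, adjusted p = 0.541 by limma). Ldha itself stood at 0.07, and the difference between the 2 subunits was not tested.

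Of 11 vascular genes, 0 were called and 3 had a log2 change above 0, with a median of -0.17. Kdr, the main receptor of Vegfa, had 27.8 ± 4.29 FPKM in spaceflight (SD, n = 9) and 27.3 ± 3.74 FPKM in ground control retinas (SD, n = 7). Angptl4, a lipase inhibitor induced by hypoxia and by fatty acids, had 2.87 ± 1.59 FPKM in spaceflight and 4.31 ± 1.53 FPKM in ground control retinas (log2 change -0.66, adjusted p = 0.418 by limma). Vegfb, a relative of Vegfa, had 58.0 ± 5.95 FPKM in spaceflight and 68.0 ± 13.4 FPKM in ground control retinas (log2 change -0.21, adjusted p = 0.479 by limma). The groups overlapped for each of these genes. Edn2, which encodes endothelin-2, was low and uneven, with 1.49 ± 1.55 FPKM in spaceflight, 0.676 ± 0.500 FPKM in ground control retinas and a library listed at 0 among the ground controls. Its log2 change was 0.97, with an interval of -0.45 to 2.40 (adjusted p = 0.591 by limma).

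Of 8 genes of mitochondria and autophagy, 5 were above 0 and 0 called, with a median of 0.03. The highest levels were those of Fam162a, at 41.5 ± 4.15 FPKM in spaceflight (SD, n = 9) and 40.9 ± 6.48 FPKM in ground control retinas (SD, n = 7), and Bnip3l, the close relative of Bnip3, at 40.4 ± 6.41 FPKM in spaceflight and 39.8 ± 9.15 FPKM in ground control retinas. Ndufa4l2, a mitochondrial HIF target, had 2.17 ± 1.59 FPKM in spaceflight and 1.81 ± 1.52 FPKM in ground control retinas (log2 change 0.36, adjusted p = 0.753 by limma). Fundc1, a mitophagy receptor, had 15.9 ± 1.68 FPKM in spaceflight and 14.5 ± 3.59 FPKM in ground control retinas (log2 change 0.16, adjusted p = 0.651 by limma).

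Of 15 other HIF targets, 0 were called and 5 had a log2 change above 0, with a median of -0.125, and 2 had an unadjusted p of at most 0.05. Ero1l, an oxidase of the endoplasmic reticulum, had the lowest p of the 78, with 10.4 ± 1.15 FPKM in spaceflight and 8.06 ± 1.88 FPKM in ground control retinas (log2 change 0.39, adjusted p = 0.369 by limma). Its groups overlapped as well. Ddit4, an inhibitor of mTOR signalling, had 25.5 ± 2.81 FPKM in spaceflight and 30.8 ± 11.5 FPKM in ground control retinas (log2 change -0.21, adjusted p = 0.621 by limma). Bhlhe40, a transcriptional repressor, had 28.0 ± 4.78 FPKM in spaceflight and 31.2 ± 4.21 FPKM in ground control retinas (log2 change -0.16, adjusted p = 0.570 by limma). The relatives of Ndrg1 formed a list of their own, with 3 genes tested and 0 called. Highest in level among them were Ndrg3 with 189 ± 26.9 FPKM in spaceflight and 185 ± 24.5 FPKM in ground control retinas, and Ndrg4 with 68.7 ± 13.3 FPKM in spaceflight and 64.6 ± 15.7 FPKM in ground control retinas.

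Without M23 and M31, the libraries highest for Slc2a1 and for the pigment epithelium, 1120 of 14292 genes were called, or 7.84%, an alternative chosen after seeing the data. None of the 9 members was among them. Of the wider lists 9 of 78 were, with Cul2, Pdhb and Ero1l higher and Gpi1, Aldoa, Pkm2, Ldhb, Slc16a8 and Angptl4 lower in spaceflight.

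DNA at the starts of the members was almost free of methylation in both groups, as it was at most promoters tested. Coverage summed over CpG cytosines was 61652709 to 80242659 in spaceflight and 59572205 to 105298542 in ground control RRBS libraries. A read counts in it once for each CpG cytosine that it covers. In all 16 libraries, 1071573 CpGs had at least 10 reads. Methylation was summed over the CpGs within 1000 bp of a start, and 10 promoters, 1 for each member, had CpGs read this way. By a quasi-binomial test, 0 of 20041 promoters were called over the whole table, or 0%, where a call needed 10 percentage points and at most 0.05 for the adjusted p. At an unadjusted p of at most 0.05 were 0 of the 10 member promoters, against 1081 promoters, or 5.39%. Over all 20041 promoters, ground control methylation had a median of 0.699% and was under 10% for 76.8% of them. The groups differed by less than 1 percentage point at 85.3% of all promoters, so that low levels and small differences are not particular to the members.

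The Hif1a promoter, with 68 CpGs, was 0.369 ± 0.081% methylated in spaceflight (SD, n = 8) and 0.394 ± 0.112% in ground control retinas (SD, n = 8). The Vegfa promoter, with 54 CpGs, was at 0.469 ± 0.098% in spaceflight and 0.460 ± 0.230% in ground control retinas. Egln3, with 40 CpGs, was at 0.653 ± 0.170% in spaceflight and 0.715 ± 0.145% in ground control retinas. These 3 promoters thus lay under 1% in every library.

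Of the metabolic members, the Slc2a1 promoter had the lowest p of the 10. Its 27 CpGs were 0.550 ± 0.193% methylated in spaceflight (SD, n = 8; lowest 0.228, median 0.5681, highest 0.773) and 0.372 ± 0.228% in ground control retinas (SD, n = 8; lowest 0.145, median 0.285, highest 0.732), and the groups overlapped. The quasi-binomial test across all promoters gave an adjusted p of 0.919. Ldha was at 0.387 ± 0.140% in spaceflight and 0.283 ± 0.084% in ground control retinas, Pdk1 at 0.324 ± 0.164% in spaceflight and 0.354 ± 0.302% in ground control retinas, and Bnip3 at 0.630 ± 0.275% in spaceflight and 0.519 ± 0.205% in ground control retinas. The remaining promoters carried a little more. Adm was at 1.62 ± 0.746% in spaceflight and 1.53 ± 0.592% in ground control retinas. Ndrg1 was at 3.72 ± 0.598% in spaceflight and 3.44 ± 0.789% in ground control retinas. Ankrd37, with only 6 CpGs and 169 to 422 reads a library, was at 4.97 ± 2.10% in spaceflight and 4.43 ± 1.80% in ground control retinas.

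**Figure D5:**
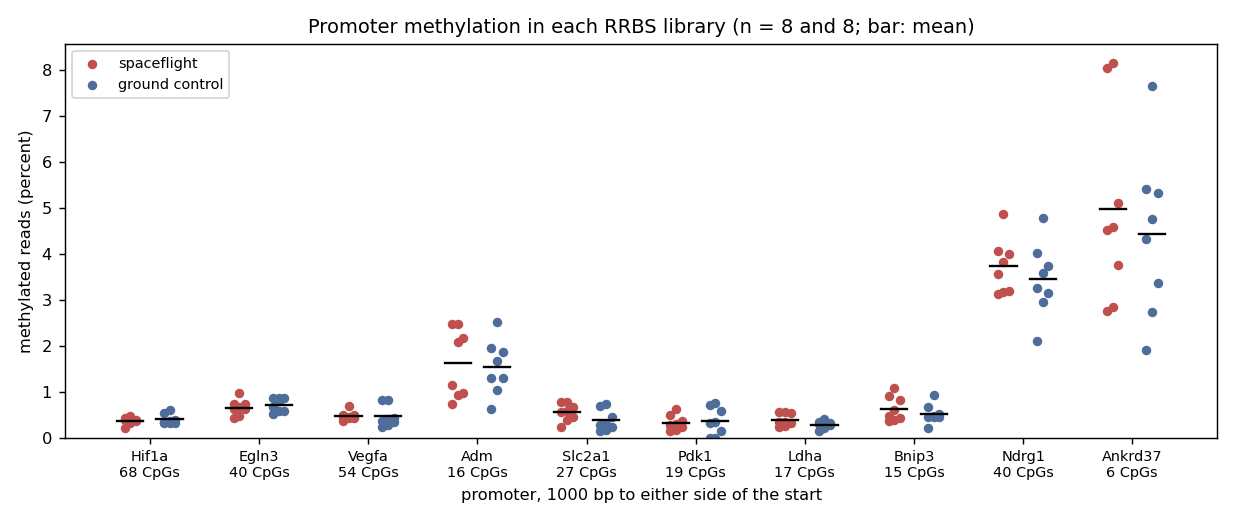
Percent of methylated reads over the CpGs within 1000 bp of the start of each member, 1 point for each of 8 spaceflight and 8 ground control RRBS libraries, with the mean as a bar. The groups overlap for all 10 promoters, and Ankrd37, with the fewest CpGs, spreads most.

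At single CpGs, 0 of 1071573 were called, or 0%, while 43869, or 4.09%, had an unadjusted p of at most 0.05. Of the 302 CpGs in the member promoters, 0 were called and 7, or 2.32%, had an unadjusted p of at most 0.05. The largest difference among them was 3.07 percentage points, at a CpG of Slc2a1, chr4:119109383, 638 bases after the start. It was methylated in 7 of 8 spaceflight libraries (lowest 0%, median 3.50%, highest 8.20%) and in 2 of 8 ground control libraries (median 0%, highest 2.27%), with 44 to 94 reads a library. The quasi-binomial p across all CpGs was 0.00323 and the adjusted p 0.865, so that it did not pass. The other CpGs with the lowest p of a member differed by at most 1.17 points.

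Methylation was mostly higher away from the starts, and there the group means lay within the spread between mice. Over 9 CpGs in the body of Pdk1 the mean was 96.0 ± 1.48% in spaceflight (SD, n = 8) and 96.4 ± 1.88% in ground control retinas (SD, n = 8), and over 68 CpGs in the body of Vegfa 29.1 ± 0.576% in spaceflight and 28.8 ± 0.989% in ground control retinas. Over 137 CpGs nearest to the start of Egln3 but outside the gene and promoter it was 56.1 ± 0.969% in spaceflight and 56.9 ± 0.485% in ground control retinas. Of the 796 CpGs nearest to a member's start, 26, or 3.27%, had an unadjusted p of at most 0.05, below the 4.09% of all CpGs, and none was called. Only 3 of 812 listed CpGs differed by 10 points or more, and the adjusted p was 0.865 for each of the 3.

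The core motifs that the RRBS reads reached are shown here with the CpG in the middle of 30 bases (GRCm38.p6, 5′ to 3′ on the strand of the gene), the core in capitals on either strand, and the distance of the CpG from the start in the name. No Vegfa core was read. The Vegfa promoter window of 300 bases at its main start held no core, but 7 lay within 1000 bp of that start. The 1 shown is the only ACGTG among those 7.
Hif1a at -359, chr12:73907494-73907523, plus strand: accgggtccagcCACGCagctaaggagtaa
Hif1a at 568, chr12:73908421-73908450, plus strand: tcccccgcggtcCACGTcgccatcttggcg
Egln3 at 549, chr12:54203311-54203340, minus strand: aggcgaccagatCACGTGgatcgggggcaa
Egln3 at 273, chr12:54203587-54203616, minus strand: gaaagccctgggtGCGTGcaccctgggggt
Vegfa at -921, chr17:46033284-46033313, minus strand: ctacacagtgcatACGTGggtttccacagg
Adm at 538, chr7:110628181-110628210, plus strand: gccgccacccttcGCGTGctgacgggatcg
Ldha at -143, chr7:46845647-46845676, plus strand: ggtgtcgcagcaCACGTGgagccactcttg
Bnip3 at -522, chr7:138910014-138910043, minus strand: aaactatctgtaaGCGTGcatagagacagc
Ankrd37 at -320 and -324, chr8:46000156-46000185, minus strand: ttccgggctACGTGCGTGctctcagtcaca
Within 1000 bp of the starts of 9 members lay 89 CpGs inside a core, and 9 of them, in 6 members, had at least 10 reads in all 16 libraries. The start of Ndrg1 was not searched for cores, so that the counts given here leave it out. Ldha at -143 and Egln3 at 549 are palindromes, CACGTG, which hold a core on both strands, and Ankrd37 holds ACGTG and GCGTG that share 1 base. Such cores are common, as 89.8% of 31647 mouse starts had one within 1000 bp, with a median of 3 per start and of 8 for the member starts.

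These cores were unmethylated or nearly so in both groups, as most promoters tested were. Over the pooled reads of a group, the 9 CpGs ran between 0 and 1.92%, the largest difference was 1.27 points, and 0 of the 9 had an unadjusted p of at most 0.05. The lowest p was that of Bnip3 at -522, which was 1.92% methylated over the reads of spaceflight libraries (lowest 0, median 1.67, highest 5) and 0.787% over those of ground control libraries (lowest 0, median 0.728, highest 1.67), with 120 to 223 reads a library and p = 0.0748 in the quasi-binomial fit across all CpGs. The 4 core CpGs of Hif1a and Egln3 were under 1% in each group. The other cores, among them every core of Slc2a1, Pdk1 and Vegfa, were not read at that depth in all libraries, so that nothing is said here of their methylation.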

How the data were processed

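For RNA, the authors trimmed reads with Trimmomatic, aligned them with TopHat2 and deposited FPKM for 26630 entries, 1 without a gene name and left out here. The study reports the reads of its libraries, but the read count behind the FPKM of a single gene is unknown, and so is its counting error. In the table, 2 columns that were matched to no library under the reading followed here were left out, M37 among them. A fit with the column of M37 in place of that of M40 was not run. RRBS reads were processed by the authors with Trim Galore 0.4.5 and Bismark on GRCm38 (per the submitters' processing notes), who deposited a read count (coverage) and the percent methylated for each CpG cytosine.

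Members and gene lists were chosen with earlier results of these data known. Expression was fitted with limma 3.58.1 in R 4.3.3 (mean-variance trend) on log2(FPKM + 0.1) for genes with a mean of at least 1 FPKM, with Benjamini-Hochberg adjustment over all of them. Fold changes on this scale understate those of low genes. Single members were also compared by an exact two-sided permutation test, and correlations by 100000 permutations within groups. The study tested reads with Cuffdiff, which FPKM do not allow. For RRBS, strands were added, CpGs needed 10 reads in all 16 libraries, and reads were tested by a quasi-binomial F-test with dispersion of at least 1. All members were named, and of each wider list the genes called, the 2 with the largest change and the 2 with the highest mean, and of CpGs the lowest p per member promoter and those in cores. For 1 gene of the wider lists, the result is not reported here. Promoter sequences and gene models came from RefSeq, GRCm38.p6. The fits were tested on simulated data. Alternatives covered pseudocount, filter, scaling, weights, eye side, the reading of M21 and each library left out.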

Additional observations from a re-analysis of the deposited data

Results flagged for a closer look

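In 40 groups of libraries, the highest or lowest value was compared with its nearest neighbour, and 6 stood apart by Dixon's 95% limit, where about 1 in 20 would by chance. For Slc2a1, spaceflight mouse M23 had 167.3 FPKM with the next at 110.0 FPKM, and ground control mouse M31 had 271.8 FPKM with the next at 117.9 FPKM. For Ndrg1, spaceflight mouse M22 had 102.7 FPKM with the next at 79.7 FPKM, and ground control mouse M31 had 125.3 FPKM with the next at 77.6 FPKM. For Egln3, M31 again stood above the other ground controls, at 4.19 FPKM with the next at 2.47 FPKM. The promoter of Vegfa was 0.684% methylated in spaceflight mouse M25, with the next library at 0.499%. The same 3 RNA libraries, M22, M23 and M31, carried all 5 expression values, and M31 also held the highest pigment epithelium, lens and microglia sums of the ground controls. The part of those tissues in the values was not tested.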

How the results depend on the processing

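Of the 9 members, 0 were called under every alternative but scaling to the total of genes other than short RNAs, under which 1 was. Pathway genes called were 0 at first, 5 with that scaling, 2 with quality weights and 9 without M23 and M31, and 0 to 4 with single libraries left out (4 without M31). Genes called over the whole table were 21 at first, 2104 with total scaling, 11 with quantile normalization, 342 with quality weights, 0 with eye side as a covariate, 0 with M21 as ground control, 4 without M21, M22 and M31, 1120 without M23 and M31, and 0 to 1367 with single libraries left out (1367 without M31, 523 without M35, 480 without M33). Called pairs of members were 6 (2 positive), 2 with total scaling (1 positive) and 4 with a pseudocount of 1 (0 positive). Without overdispersion, 2 promoters and 22 CpGs were called, none of them of a member.

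Hif1a, Ldha and Slc2a1 kept their sign under all 29 alternatives. The log2 change of Egln3 turned to -0.050 with quality weights, -0.36 with M21 as ground control and -0.13 without M21, M22 and M31. Vegfa turned to 0.023 with total scaling and 0.029 without those 3 libraries. Pdk1 turned to -0.00039 with quantile normalization, -0.0100 with eye side and -0.0064 with M21 as ground control. Bnip3 turned to 0.12 with total scaling, 0.033 with quantile normalization, 0.042 with weights, 0.050 with M21 as ground control and 0.025 without the 3 libraries. Ndrg1 turned to 0.11 with total scaling, 0.053 with quantile normalization, 0.026 with M21 as ground control, 0.059 without the 3 and 0.088 without M23 and M31, and Ankrd37 to -0.064 without M23 and M31. With single libraries left out, the ranges were -0.055 to 0.39 for Egln3, -0.025 to 0.091 for Pdk1, -0.046 to 0.026 for Bnip3, -0.080 to 0.10 for Ndrg1 and -0.061 to 0.091 for Ankrd37. For Vegfa, which kept its sign there, the range was -0.15 to -0.042, the last without M22. Total scaling moved the median of all genes by 0.13, and relative to that shift Vegfa was at -0.11, Bnip3 at -0.0077 and Ndrg1 at -0.020, so that their sign above 0 under it was that of the common shift. For the other changes the cause was not tested.

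The alternatives that leave out M21, M22 and M31, or M23 and M31, were chosen after seeing the data. No paired analysis was possible because spaceflight and ground control mice share no number. The unknown read count behind its low FPKM limits what can be said of Adm. RRBS reached 9 of the 89 core CpGs counted, and Ndrg1 was not searched for cores.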
